A study of Mus musculus with 18 samples.

Results

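The endothelial cell genes examined here were 40 mouse genes of endothelial junctions, receptors, transcription factors and tip cells, the cells that lead a vessel sprout. They were chosen by name, as the rows of the count files whose Entrez Gene identifier belongs to 1 of 40 symbols, a rule that uses no measured value, although the set was drawn up when earlier results of these data were known. All 40 had a row among the 22792 genes in the files, and all 40 passed the filter on low counts, which left 15282 genes tested. The sum of the 40 genes made up 0.171% to 0.195% of all counts in the Vehicle tumors, 0.142% to 0.172% in the PI3Ki tumors, 0.167% to 0.223% in the SHP2i tumors and 0.091% to 0.112% in the Combo tumors.

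The tumors grew from 300000 cells of 4T1, a Balb/c breast carcinoma line without hormone receptors or HER2, placed in the mammary fat pad of female Balb/c mice 8 weeks old. Vehicle tumors (n = 5) came from mice without inhibitor, PI3Ki tumors (n = 4) from mice given the pan-PI3K inhibitor CLR457, SHP2i tumors (n = 4) from mice given the allosteric SHP2 inhibitor SHP099, and Combo tumors (n = 5) from mice given both. Treatment ran from day 7 until the tumors were collected on day 21. RNA was sequenced from whole tumors, 1 library for each tumor, so carcinoma cells, vessels, blood cells and neighbouring tissue were measured together. The study gives its group sizes for these tumors in animals, so the p-values measure the spread between animals of a group.

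Blood vessels are lined by endothelial cells, which hold on to each other by VE-cadherin, claudin-5 and other junction proteins. VEGF receptors drive their sprouting, Notch signalling sets which cell leads a sprout, and angiopoietin receptors act in the stability of the finished vessel. In a grafted tumor the vessels come from the host animal, and their identity rests on transcription factors of the ETS and SOX families.

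The libraries held between 21.16 M and 26.62 M counts, with a median of 23.52 M. Levels are given in CPM, counts per M counts after TMM scaling. The keratins Krt8 and Krt18, markers of the carcinoma, had group means of 392.9 to 623.7 CPM and 306.3 to 493.8 CPM. Other cell types differed between the groups. All 12 skeletal muscle markers were higher in PI3Ki than in Vehicle tumors, with a summed level of 877.3 to 2144 CPM against 5.333 to 113.8 CPM. All 8 pan-leukocyte markers were lower in Combo than in Vehicle tumors, with a summed level of 228.2 to 1038 CPM against 1391 to 2204 CPM, and 7 of 8 were lower in SHP2i tumors (552.9 to 1008 CPM). B cell markers were high in Combo replicates 3 and 4 alone of the Combo tumors. Values below are listed in the order of replicates 1 to 5 for Vehicle and Combo, replicates 1, 2, 3 and 5 for PI3Ki and replicates 2 to 5 for SHP2i.

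In Combo tumors most endothelial genes fell, the apelin receptor most of all, while endoglin, multimerin 2, endocan, von Willebrand factor and VE-PTP did not pass the test. Of the 40 genes, 34 were lower and 1 was higher at an adjusted p under 0.05 (edgeR's quasi-likelihood test, Benjamini-Hochberg adjustment over all genes), where 19.7% of all genes tested were lower and 23.9% were higher. The median log2 fold change of the 40 genes was -1.26, against 0.02 over all genes. A fall by more than 1 on the log2 scale was seen in 29 of them, against 6.86% of all genes. In 33 of the 40 every Combo tumor lay below every Vehicle tumor, against 13.4% of all genes. In a whole tumor, fewer endothelial cells, less of these RNAs per endothelial cell and less of them from other cells cannot be told apart.

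**Figure D1:**
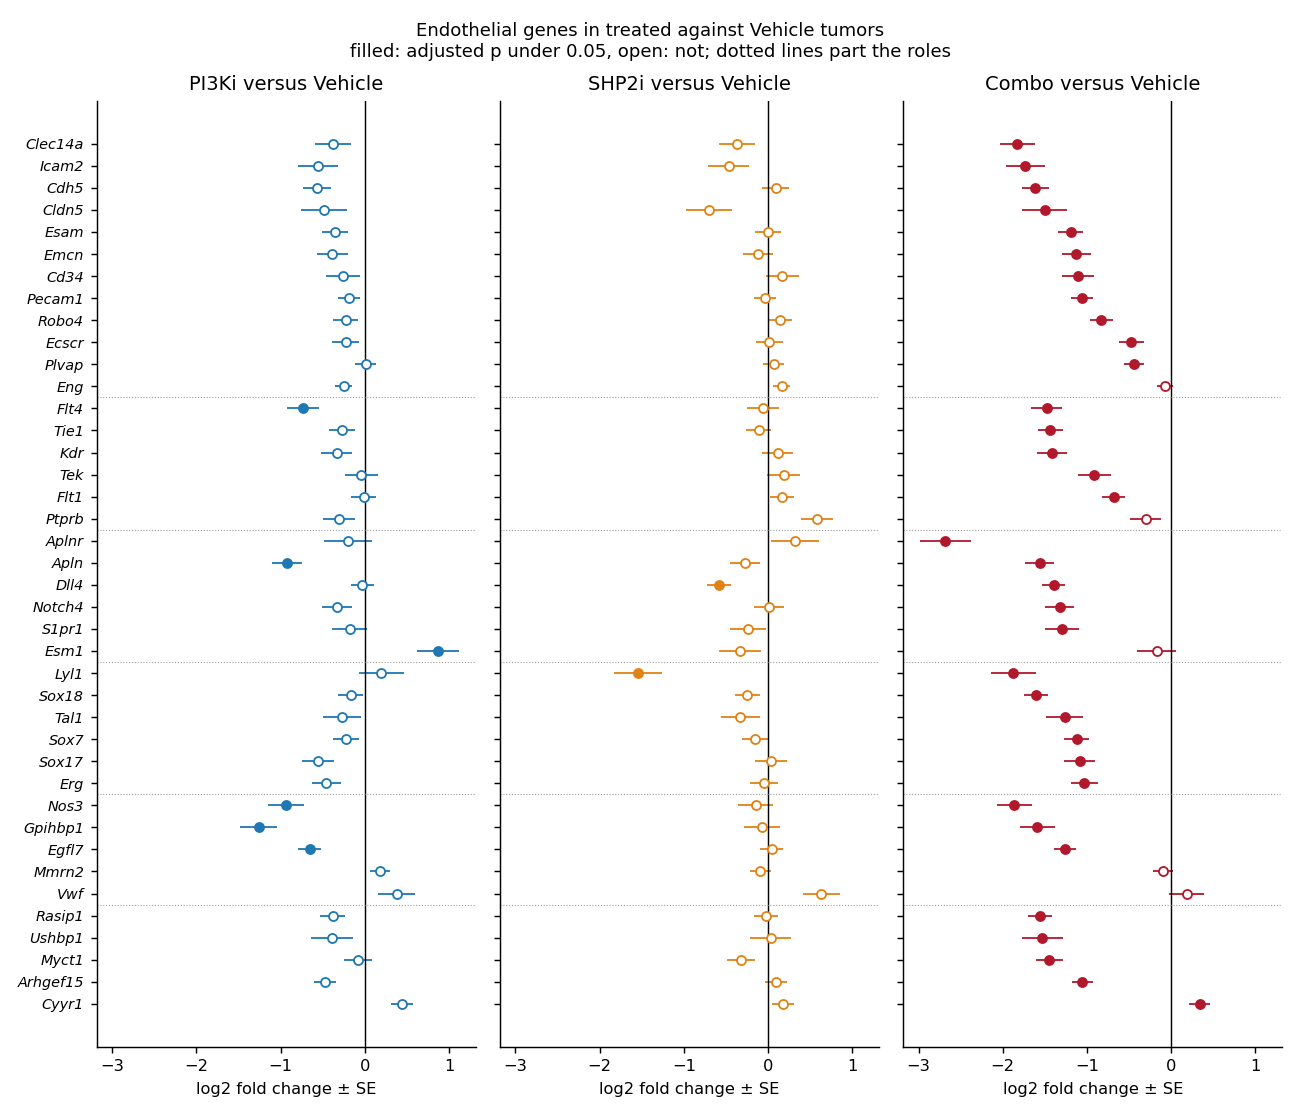
Log2 fold change against Vehicle (x axis, bars show the SE) of the 40 endothelial genes (y axis) for PI3Ki, SHP2i and Combo tumors. Filled points passed an adjusted p under 0.05: 5 lower and 1 higher in PI3Ki, 2 lower in SHP2i, and 34 lower and 1 higher in Combo. Dotted lines part the genes by role, from junction and surface proteins at the top to intracellular regulators at the bottom. The open points of the Combo panel are Eng, Ptprb, Esm1, Mmrn2 and Vwf.

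Of the 12 junction and surface proteins, 11 fell in Combo tumors, with a median of -1.12. Cdh5 (Entrez Gene 12562, chr8:104101613-104144504, all positions on GRCm38.p6) encodes VE-cadherin, the adhesion protein of endothelial junctions. Cdh5 stood at 116, 104, 138, 132 and 145 CPM in the Vehicle tumors and at 42.1, 38.8, 45.9, 34.1 and 46.5 CPM in the Combo tumors, a log2 fold change of -1.61 ± 0.156 (SE), adjusted p = 9.74e-07 by edgeR. The highest Combo tumor, at 46.5 CPM, was below the lowest Vehicle tumor, at 104 CPM. Pecam1 (Entrez Gene 18613, chr11:106654213-106715281), which encodes the adhesion protein CD31 and is the usual stain for vessels, stood at 165, 151, 181, 185 and 185 CPM in Vehicle and at 82.0, 73.7, 108, 68.9 and 83.0 CPM in Combo tumors. It fell by 1.06 on the log2 scale, with an SE of 0.127 and an adjusted p of 7.94e-06 by edgeR, and the groups did not overlap, though Combo replicate 3 stood above the other Combo tumors. The other falls in this role were -1.83 for the C-type lectin Clec14a, -1.73 for the leukocyte ligand Icam2, -1.50 for the tight junction protein Cldn5, -1.19 for Esam, -1.13 for the sialomucin Emcn, -1.11 for Cd34 and -0.83 for the guidance receptor Robo4. Smaller falls were measured for Ecscr (-0.47), whose groups overlapped, and for Plvap (-0.44), the protein of the diaphragms across endothelial pores.

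Eng (Entrez Gene 13805, chr2:32646595-32682669), which encodes the TGF-beta and BMP co-receptor endoglin, was the junction and surface gene that did not pass the test in Combo tumors. Its levels were 199, 173, 190.3, 212 and 226 CPM in Vehicle and 172, 195, 168, 192 and 224 CPM in Combo tumors, a log2 fold change of -0.07 ± 0.0945 (SE), adjusted p = 0.56 by edgeR. Both groups spanned nearly the same range. Eng shares bases with Fpgs and the counting may have split reads between them.

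Of the 6 VEGF and angiopoietin receptors and their phosphatase, 5 fell in Combo tumors, with a median of -1.17. Kdr, the main signalling receptor for VEGF-A, had a log2 fold change of -1.42 ± 0.179 (SE), adjusted p = 1.32e-05 by edgeR, and Flt4, the receptor for VEGF-C, one of -1.48 ± 0.183 (SE). Tie1 (Entrez Gene 21846, chr4:118471191-118489849), the partner of the angiopoietin receptor Tek, stood at 50.4, 42.4, 52.5, 44.3 and 49.7 CPM in Vehicle tumors and at 19.2, 14.9, 18.3, 16.4 and 19.6 CPM in Combo tumors. That is a log2 fold change of -1.44 ± 0.147 (SE), adjusted p = 1.77e-06 by edgeR, with the highest Combo tumor at 19.6 CPM and the lowest Vehicle tumor at 42.4 CPM. Tek itself had a log2 fold change of -0.91 ± 0.192 (SE). Flt1 (Entrez Gene 14254, chr5:147561604-147726438), the VEGF receptor that also acts as a decoy, stood at 81.9, 53.4, 66.9, 66.2 and 80.6 CPM in Vehicle and 50.3, 36.7, 44.5, 35.0 and 50.5 CPM in Combo tumors, with a smaller log2 fold change of -0.68 ± 0.136 (SE), adjusted p = 0.000725 by edgeR and no overlap.

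Ptprb (Entrez Gene 19263, chr10:116275502-116389538) encodes VE-PTP, the phosphatase that acts on the angiopoietin receptor and on VE-cadherin. Its levels were 22.5, 16.4, 25.6, 23.2 and 30.8 CPM in Vehicle and 19.5, 17.5, 19.6, 13.4 and 26.1 CPM in Combo tumors, and the log2 fold change of -0.30 ± 0.182 (SE) did not pass the test (adjusted p = 0.191 by edgeR). All Combo tumors but replicate 4 lay inside the Vehicle range.

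The largest fall of all 40 genes was that of Aplnr (Entrez Gene 23796, chr2:85136360-85139923), the receptor for the peptide apelin. Aplnr stood at 25.9, 27.8, 40.8, 21.8 and 24.7 CPM in Vehicle tumors and at 4.68, 5.68, 5.92, 2.85 and 2.83 CPM in Combo tumors. The level was 6.41-fold lower, a log2 fold change of -2.68 ± 0.298 (SE), adjusted p = 3.83e-06 by edgeR, and Combo replicates 4 and 5 were the lowest of all 18 tumors. Apln (Entrez Gene 30878, chrX:48025146-48034853), the apelin ligand made by tip cells, went from 147, 132, 129, 164 and 148 CPM in Vehicle to 41.1, 48.6, 49.4, 47.9 and 57.1 CPM in Combo tumors. That change was -1.56 ± 0.171 (SE), adjusted p = 3.43e-06 by edgeR, and the highest Combo tumor, at 57.1 CPM, lay below the lowest Vehicle tumor, at 129 CPM.

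Among the Notch and lipid signalling genes, Dll4 (Entrez Gene 54485, chr2:119325784-119335666), the Notch ligand of tip cells, stood at 39.1, 32.0, 37.4, 33.4 and 36.5 CPM in Vehicle and at 11.5, 10.5, 13.6, 15.8 and 16.5 CPM in Combo tumors. Its log2 fold change was -1.39 ± 0.135 (SE), adjusted p = 9.92e-07 by edgeR, and the groups were far apart. The Notch receptor Notch4 had a log2 fold change of -1.33 ± 0.173 (SE) and the sphingosine-1-phosphate receptor S1pr1 one of -1.30 ± 0.204 (SE). Esm1 (Entrez Gene 71690, chr13:113209659-113218104), the secreted proteoglycan endocan and another tip cell gene, did not follow them. It stood at 47.1, 35.1, 37.3, 39.7 and 32.7 CPM in Vehicle and at 24.0, 19.9, 38.2, 36.2 and 51.9 CPM in Combo tumors, with a log2 fold change of -0.17 ± 0.235 (SE), adjusted p = 0.582 by edgeR. Combo tumors were spread for Esm1, replicate 5 lying above and replicates 1 and 2 below all Vehicle tumors.

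All 6 transcription factors fell in Combo tumors, with a median of -1.19. Sox18 (Entrez Gene 20672, chr2:181669837-181671640) encodes a SOX factor of vessel formation and had the smallest p of the 40 genes in this comparison. Sox18 stood at 39.5, 38.0, 43.7, 36.0 and 34.3 CPM in Vehicle and at 15.6, 9.84, 11.7, 11.5 and 14.4 CPM in Combo tumors, a log2 fold change of -1.60 ± 0.144 (SE), adjusted p = 4.58e-07 by edgeR. The related factors Sox7 and Sox17 had log2 fold changes of -1.12 ± 0.152 (SE) and -1.09 ± 0.184 (SE). Erg (Entrez Gene 13876, chr16:95359169-95586600), the ETS factor of endothelial identity, went from 11.8, 12.01, 13.8, 12.3 and 13.7 CPM in Vehicle to 7.66, 3.89, 7.51, 5.27 and 6.78 CPM in Combo tumors. Its change was -1.03 ± 0.163 (SE), adjusted p = 1e-04 by edgeR, without overlap.

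Lyl1 and Tal1 are related bHLH factors that both endothelial and blood-forming cells use. Lyl1 (Entrez Gene 17095, chr8:84701423-84704716) stood at 8.31, 11.8, 11.6, 11.2 and 9.95 CPM in Vehicle and at 1.88, 3.44, 4.49, 2.89 and 1.64 CPM in Combo tumors, a log2 fold change of -1.88 ± 0.267 (SE), adjusted p = 3.96e-05 by edgeR. No Combo tumor reached a Vehicle tumor. With the pan-leukocyte level of each tumor in the fit its change was -0.64 (adjusted p = 0.151 by edgeR). All Combo tumors stood below all Vehicle tumors in leukocyte level, so that fit cannot part leukocyte content from the treatment. The part of leukocytes in the change was not tested further. Lyl1 shares bases with Nfix, and Tal1 had a log2 fold change of -1.26 ± 0.222 (SE).

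Of the 5 genes in the role that holds Nos3 and the secreted, matrix and lumen genes, 3 fell in Combo tumors. Nos3, the endothelial nitric oxide synthase, had a log2 fold change of -1.86 ± 0.208 (SE), adjusted p = 4.03e-06 by edgeR. Egfl7 (Entrez Gene 353156, chr2:26581083-26592682), a matrix protein secreted by endothelial cells, stood at 55.3, 56.3, 53.6, 48.8 and 46.5 CPM in Vehicle and at 28.0, 17.6, 22.2, 20.6 and 20.4 CPM in Combo tumors, with a log2 fold change of -1.26 ± 0.131 (SE), adjusted p = 1.94e-06 by edgeR. The highest Combo tumor stood at 28.0 CPM and the lowest Vehicle tumor at 46.5 CPM. Gpihbp1 (Entrez Gene 68453, chr15:75596630-75598213), which carries lipoprotein lipase across capillary endothelium, stood at 23.6, 25.8, 28.3, 21.5 and 24.3 CPM in Vehicle and at 6.48, 6.75, 6.73, 7.17 and 13.9 CPM in Combo tumors, a log2 fold change of -1.59 ± 0.208 (SE), adjusted p = 1.84e-05 by edgeR. Combo replicate 5 stood apart from the other Combo tumors but below all Vehicle tumors.

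Mmrn2 (Entrez Gene 105450, chr14:34375504-34404287) encodes multimerin 2, a matrix protein that binds Clec14a. Its levels were 74.7, 65.8, 69.5, 62.2 and 70.3 CPM in Vehicle and 65.3, 64.3, 46.6, 74.5 and 69.5 CPM in Combo tumors, a log2 fold change of -0.10 ± 0.116 (SE), adjusted p = 0.529 by edgeR. Apart from Combo replicate 3 the tumors of both groups lay in 1 range. Vwf, the von Willebrand factor that endothelial cells and megakaryocytes store, had a log2 fold change of 0.19 ± 0.208 (SE), adjusted p = 0.496 by edgeR.

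Among the intracellular regulators and small membrane proteins, Rasip1 (Entrez Gene 69903, chr7:45627537-45639092), a Ras and Rap effector needed for vessel lumens, stood at 26.2, 24.2, 31.9, 24.5 and 25.3 CPM in Vehicle and at 7.92, 8.23, 10.4, 8.90 and 9.26 CPM in Combo tumors. Its log2 fold change was -1.56 ± 0.143 (SE), adjusted p = 5.73e-07 by edgeR, and the Combo tumors were within a narrow range far below Vehicle. Myct1, Ushbp1 and the guanine nucleotide exchange factor Arhgef15 had log2 fold changes of -1.45 ± 0.159 (SE), -1.53 ± 0.243 (SE) and -1.06 ± 0.128 (SE). Cyyr1 (Entrez Gene 224405, chr16:85452858-85550905), a small membrane protein, was the 1 member that was higher, at 53.6, 47.8, 56.5, 54.7 and 51.6 CPM in Vehicle and 71.7, 50.2, 59.7, 77 and 75.4 CPM in Combo tumors. The log2 fold change was 0.34 ± 0.126 (SE), adjusted p = 0.0375 by edgeR, the groups overlapped through Combo replicate 2, and the call was lost in 9 of 18 fits that left out 1 tumor.

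**Figure D2:**
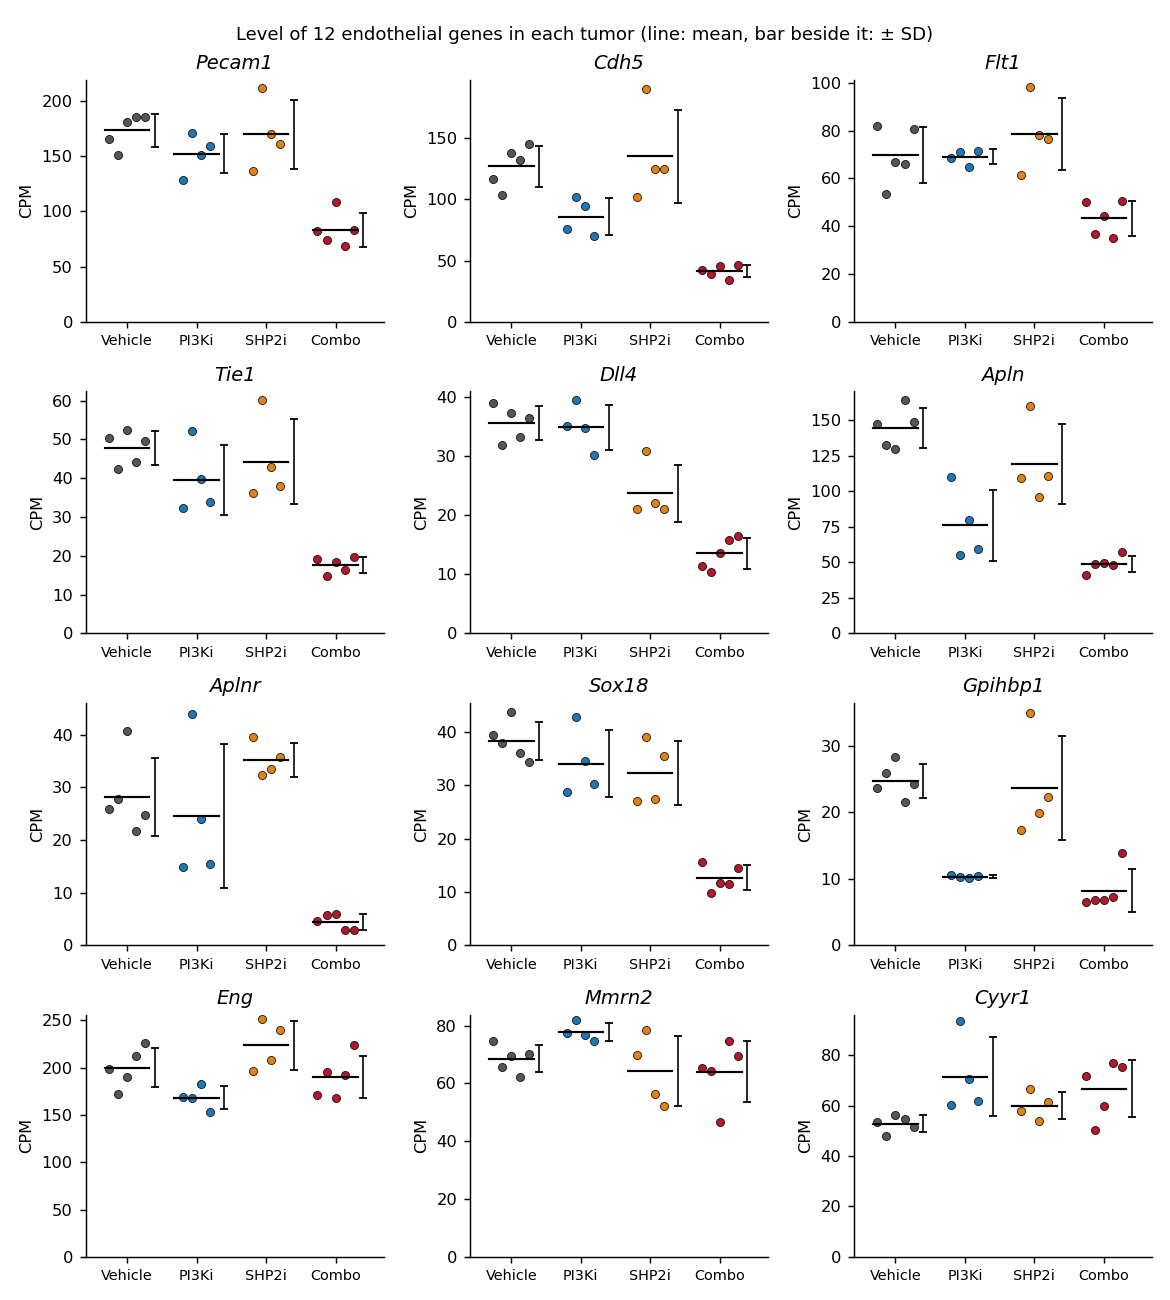
Level in CPM (y axis) of 12 endothelial genes in each tumor of the 4 groups (x axis). Points are tumors, the line is the mean and the bar beside it ± SD. For Pecam1, Cdh5, Flt1, Tie1, Dll4, Apln, Aplnr, Sox18 and Gpihbp1 the Combo points lie below all Vehicle points, and for Eng, Mmrn2 and Cyyr1 both groups overlap.

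The promoter sequences are shown for Rasip1 and Dll4, which had the smallest p in Combo against Vehicle among the members with an entry in the RefSeq promoter table used here, and for Esm1, which had the largest. Each line holds the 150 bases before the start of the gene on GRCm38.p6, plus strand, with the ETS core GGAAG or its other strand, CTTCC, in capitals.
Rasip1, chr7:45627387-45627536: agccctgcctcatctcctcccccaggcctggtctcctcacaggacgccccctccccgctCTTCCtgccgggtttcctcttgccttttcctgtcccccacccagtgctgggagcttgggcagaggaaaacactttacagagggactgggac
Dll4, chr2:119325634-119325783: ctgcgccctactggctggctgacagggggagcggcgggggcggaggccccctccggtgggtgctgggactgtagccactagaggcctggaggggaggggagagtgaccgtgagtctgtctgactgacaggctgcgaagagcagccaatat
Esm1, chr13:113209509-113209658: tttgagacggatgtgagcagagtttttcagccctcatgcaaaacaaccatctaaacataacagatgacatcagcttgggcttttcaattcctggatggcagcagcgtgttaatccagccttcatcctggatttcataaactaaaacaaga
The Rasip1 stretch holds 1 ETS core and the other stretches hold 0, though the whole Dll4 window, which reaches from 250 bases before to 50 after the start, holds 2. The table matched 23 of the 40 members with 28 windows. On either strand, GGAAG was in 78.6% of these windows and in 71.4% of all 32851 windows, the GATA motif TGATAA in 7.1% and 9.1%, the SOX motif AACAAAG in 7.1% and 5.9%, the E-box CANNTG in 67.9% and 72.3%, and the AP-1 motif TGACTCA in 3.6% and 5.2%. The mean number of matches in a window was 1.82 against 1.35 for GGAAG and 0.96 against 1.39 for the E-box. These shares and means were not tested, and a match is not a bound site.

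Under PI3K inhibition alone most of the genes had lower levels, and how many passed the test turned on the method. In PI3Ki tumors 5 of the 40 were lower and 1 was higher than in Vehicle, where 2.42% of all genes were lower and 2.69% were higher by edgeR. DESeq2 called 8 lower and limma voom 17, and edgeR had 14 lower at an unadjusted p under 0.05. The median log2 fold change was -0.27, and 34 of the 40 changes were negative. Every PI3Ki tumor lay below every Vehicle tumor for 10 members, against 5.36% of all genes. By edgeR the genes that fell were Gpihbp1 (-1.26 ± 0.221 (SE), adjusted p = 0.0024), Nos3 (-0.94 ± 0.215 (SE), adjusted p = 0.0165), Apln (-0.93 ± 0.18 (SE), adjusted p = 0.00547), Flt4 (-0.73 ± 0.191 (SE), adjusted p = 0.0339) and Egfl7 (-0.65 ± 0.138 (SE), adjusted p = 0.00929). The call of Flt4 was lost in 6 of 18 fits that left out 1 tumor, and that of Nos3 without PI3Ki replicate 5.

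Gpihbp1 was even across the PI3Ki tumors, at 10.5, 10.2, 10.1 and 10.3 CPM, and no Vehicle tumor was below 21.5 CPM. Apln stood at 110.1, 55.0, 79.8 and 59.2 CPM and Egfl7 at 31.6, 42.4, 25.3 and 33.1 CPM in the PI3Ki tumors, all below their Vehicle range. Esm1 rose instead, at 90.8, 68.5, 61.6 and 59.7 CPM, all above the Vehicle tumors (0.87 ± 0.247 (SE), adjusted p = 0.0496 by edgeR), but this call was lost in 14 of 18 fits that left out 1 tumor. Fits without PI3Ki replicate 5 called 3 genes lower and fits without PI3Ki replicate 2 called 7.

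Cdh5 and Erg were also below every Vehicle tumor, at 76.0, 102, 94.8 and 69.7 CPM and at 8.59, 10.7, 8.24 and 9.496 CPM, and did not pass the test (adjusted p = 0.0512 and 0.139 by edgeR). Cyyr1, at 60.2, 93.8, 70.6 and 61.8 CPM, was above every Vehicle tumor and did not pass it either (adjusted p = 0.0657). Levels inside or across the Vehicle range were measured for Pecam1 (129, 171, 151 and 159 CPM) and Tie1 (32.4, 52.3, 39.8 and 34.0 CPM). The same held for Flt1 (68.5, 71.1, 64.8 and 71.7 CPM), Dll4 (35.2, 39.6, 34.9 and 30.2 CPM) and Aplnr (14.8, 44.0, 24.0 and 15.5 CPM).

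PI3Ki replicate 2 was the highest of its group for 30 of the 40 genes, among them Sox18 (28.8, 42.8, 34.6 and 30.2 CPM), Rasip1 (16.6, 26.2, 20.4 and 18.01 CPM) and Lyl1 (8.51, 18.6, 9.27 and 11.98 CPM). It did not lead for Eng, at 169.5, 168, 183 and 154 CPM. Mmrn2 (77.5, 82.0, 76.6 and 74.6 CPM) and Ptprb (13.8, 22.3, 21.9 and 18.5 CPM) did not pass the test. Without PI3Ki replicate 2 and SHP2i replicate 3 the count of genes lower in PI3Ki tumors was 11.

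The PI3Ki tumors differed in skeletal muscle content: the muscle markers were higher than in Vehicle tumors by a median of 5.71 on the log2 scale. In Combo tumors, whose mice also received the PI3K inhibitor, 0 of the 12 muscle markers were higher and 1 was lower than in Vehicle. With the muscle level of each tumor in the fit, 0 of the 40 genes were called lower or higher in PI3Ki tumors by edgeR. The lowest PI3Ki tumor stood above the highest Vehicle tumor in muscle level, so muscle content and the treatment cannot be told apart in this comparison. Of the pan-leukocyte markers 0 of 8 were called between PI3Ki and Vehicle tumors.

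Under SHP2 inhibition alone the genes went both ways. In SHP2i tumors 2 of the 40 were lower and 0 were higher by edgeR, where 6.54% of all genes were lower and 5.05% were higher. At an unadjusted p under 0.05 edgeR had 3 lower and 2 higher. DESeq2 called 2 lower and 2 higher, and limma voom 8 lower and 2 higher. The median log2 fold change was -0.03, with 21 changes negative and 19 positive. In SHP2i replicate 3 the mean log2 CPM of the 40 genes was 0.237 above the Vehicle mean. In replicates 2, 4 and 5 it was -0.252, -0.168 and -0.19 relative to Vehicle. The signs of the 40 changes without replicate 3 were not counted, so what that tumor adds to the split was not tested. SHP2i tumors lay below every Vehicle tumor for 2 members, against 10.5% of all genes, and these were the 2 called genes.

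Lyl1 stood at 3.22, 2.83, 4.75 and 3.67 CPM under SHP2i, with no tumor reaching the Vehicle range (-1.54 ± 0.285 (SE), adjusted p = 0.00232 by edgeR). Dll4 stood at 21.0, 31.0, 22.0 and 21.1 CPM, all below Vehicle and above every Combo tumor (-0.58 ± 0.141 (SE), adjusted p = 0.0134 by edgeR). The pan-leukocyte markers moved with Lyl1 here (7 of 8 lower, median -1.46, none at 0 in any tumor). With the leukocyte level in the fit the change of Lyl1 was -0.59 (adjusted p = 0.188 by edgeR) and that of Dll4 -0.68 (adjusted p = 0.0872). The summed leukocyte level was at most 1008 CPM in SHP2i and at least 1391 CPM in Vehicle tumors. That fit therefore cannot part leukocyte content from the treatment, and the part of the leukocytes in either change was not tested further.

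Ptprb stood at 30.5, 42.5, 37.1 and 31.9 CPM in the SHP2i tumors, all but replicate 2 above the highest Vehicle tumor, and did not pass the test (0.58 ± 0.19 (SE), adjusted p = 0.0555 by edgeR). Vwf had a log2 fold change of 0.64 ± 0.219 (SE) (adjusted p = 0.0682 by edgeR). Cldn5 had one of -0.70 ± 0.275 (SE) (adjusted p = 0.103), with SHP2i replicate 3 at 42.5 CPM and the other SHP2i tumors at 15.8 to 17.7 CPM.

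SHP2i replicate 3 was the highest of its group for 36 of the 40 genes. It led for Pecam1 (136, 212, 170.1 and 161 CPM), Cdh5 (102, 189.7, 125 and 125 CPM) and Eng (197, 251, 208 and 240.1 CPM). The same tumor led for Flt1 (61.6, 98.2, 78.1 and 76.5 CPM), Tie1 (36.2, 60.1, 42.8 and 38.1 CPM) and Apln (109.6, 159.9, 96.1 and 111 CPM). It was the lowest for Aplnr (39.7, 32.3, 33.5 and 35.7 CPM) and for Lyl1.

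The remaining genes described tumor by tumor followed that order too, with Esm1 at 23.6, 47.6, 24.8 and 25.8 CPM and Sox18 at 27.1, 39.0, 27.4 and 35.5 CPM. Erg stood at 10.9, 15.5, 11.8 and 11.1 CPM, Egfl7 at 57.4, 59.3, 47.6 and 50.7 CPM and Gpihbp1 at 17.3, 34.9, 19.8 and 22.3 CPM. Mmrn2 stood at 69.7, 78.5, 56.5 and 52.2 CPM, Rasip1 at 22.8, 33.8, 26.1 and 21.4 CPM and Cyyr1 at 57.8, 66.6, 54.1 and 61.4 CPM. In the SHP2i tumors other than replicate 3, Esm1 lay below every Vehicle tumor, while Egfl7, Rasip1, Gpihbp1 and Sox18 overlapped the Vehicle range. Without PI3Ki replicate 2 and SHP2i replicate 3, 4 genes were called lower in SHP2i tumors.

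The question of whether both inhibitors together did more than each alone was put by 3 comparisons that share the Combo tumors. Combo tumors were lower than PI3Ki tumors for 33 of the 40 genes and higher for 0, where 17.8% of all genes were lower and 19.9% higher. They were lower than SHP2i tumors for 34 and higher for 0, where 10.3% of all genes were lower and 11.8% higher. In both comparisons 0 members were higher by edgeR at an unadjusted p under 0.05, by DESeq2 or by limma voom. The median log2 fold changes were -0.87 against PI3Ki and -1.11 against SHP2i. Aplnr had the largest fall in both, -2.48 ± 0.306 (SE) against PI3Ki and -3.0035 ± 0.309 (SE) against SHP2i. Cdh5 fell by 1.04 against PI3Ki and by 1.70 against SHP2i on the log2 scale, and Sox18 by 1.43 and 1.35. Leukocyte markers were lower in Combo than in PI3Ki tumors (8 of 8), but 0 of 8 were called between Combo and SHP2i tumors, which had a median difference of -0.19. With the leukocyte level in the fit 13 genes were called lower in Combo than in PI3Ki tumors and 34 lower than in SHP2i tumors. The summed leukocyte level was at most 1038 CPM in Combo and at least 1486 CPM in PI3Ki tumors. Against PI3Ki that fit therefore cannot part leukocyte content from the treatment. Muscle markers were lower in Combo than in PI3Ki tumors (12 of 12), and with the muscle level in the fit 0 of the 40 genes were called between these groups. Their summed level was at most 63.54 CPM in Combo and at least 877.3 CPM in PI3Ki tumors. Muscle content and the treatment therefore cannot be told apart in this comparison either.

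Gpihbp1, Ecscr, Eng, Ptprb, Vwf, Mmrn2 and Cyyr1 were the genes not called between Combo and PI3Ki tumors. For Gpihbp1 the log2 fold change was -0.33 ± 0.218 (SE) (adjusted p = 0.25 by edgeR), both groups being low. Eng, Esm1, Lyl1, Vwf, Mmrn2 and Cyyr1 were the genes not called between Combo and SHP2i tumors. Lyl1 was low in both groups (-0.33 ± 0.282 (SE), adjusted p = 0.417 by edgeR). The calls of Cldn5 and Ecscr against SHP2i were each lost when 1 of several tumors was left out.

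Between the single inhibitors, SHP2i tumors were higher than PI3Ki tumors for 10 genes and lower for 3, where 11.6% of all genes were higher and 12.8% were lower. By edgeR the higher genes were Gpihbp1 (1.19 ± 0.23 (SE), adjusted p = 0.00153), Ptprb (0.89 ± 0.203 (SE), adjusted p = 0.00478), Nos3 (0.79), Egfl7 (0.70), Flt4 (0.67), Cdh5 (0.66), Apln (0.65), Sox17 (0.60), Arhgef15 (0.57) and Eng (0.41). The lower genes were Lyl1 (-1.74 ± 0.296 (SE), adjusted p = 0.00063 by edgeR), Esm1 (-1.20) and Dll4 (-0.56). Without SHP2i replicate 3, 6 genes were higher and 5 lower. With the muscle level in the fit 0 were called in either direction. Summed muscle markers were at most 6.437 CPM in SHP2i and at least 877.3 CPM in PI3Ki tumors, so muscle content and treatment cannot be told apart here. Of the pan-leukocyte markers 7 of 8 were lower in SHP2i than in PI3Ki tumors. With their level in the fit 1 gene was higher and 3 were lower. The summed leukocyte level was at most 1008 CPM in SHP2i and at least 1486 CPM in PI3Ki tumors. That fit therefore cannot part leukocyte content from the treatment.

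The interaction compares the Combo change with the sum of the changes under both single inhibitors on the log2 scale. It was negative for 39 of the 40 genes, with a median of -0.75 against 0.02 over all genes. It passed the test for 11 members, all lower, where 1.61% of all genes were lower and 0.864% higher. Of the genes that passed, Aplnr had the largest interaction (-2.80 ± 0.416 (SE), adjusted p = 0.00276 by edgeR), followed by Kdr (-1.20 ± 0.261 (SE), adjusted p = 0.0239), Sox18 (-1.19 ± 0.209 (SE), adjusted p = 0.0082), Rasip1 (-1.16 ± 0.208 (SE), adjusted p = 0.00897) and Cdh5 (-1.14 ± 0.227 (SE), adjusted p = 0.0154). Tie1 (-1.05), Myct1 (-1.05), Notch4 (-1.01), Pecam1 (-0.84), Flt1 (-0.84) and Dll4 (-0.78) passed it too. Ushbp1 had an interaction of -1.18 ± 0.353 (SE) and did not pass (adjusted p = 0.0898 by edgeR).

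For Aplnr the group means show the pattern, at 28.2 ± 7.38 CPM (SD, n = 5) in Vehicle, 24.6 ± 13.6 CPM (SD, n = 4) in PI3Ki, 35.3 ± 3.24 CPM (SD, n = 4) in SHP2i and 4.39 ± 1.49 CPM (SD, n = 5) in Combo tumors. Neither single inhibitor moved Aplnr past the test, and the Combo tumors stood far below. Gpihbp1 and Apln, which were lower under PI3K inhibition alone, did not pass the interaction test. Their interactions were -0.26 ± 0.305 (SE) and -0.36 ± 0.25 (SE). The calls of Cdh5, Kdr, Tie1, Aplnr, Sox18 and Rasip1 held in all 18 fits that left out 1 tumor. The others were lost without 1 or more tumors, Pecam1 in 5, Myct1 in 3, Flt1 in 11, Notch4 in 13 and Dll4 in 14 of these fits. Without PI3Ki replicate 2 and SHP2i replicate 3, 5 genes were called, and with the muscle level in the fit 0. All PI3Ki tumors stood above all other tumors in muscle level, so that fit cannot part muscle content from the treatment.

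**Figure D3:**
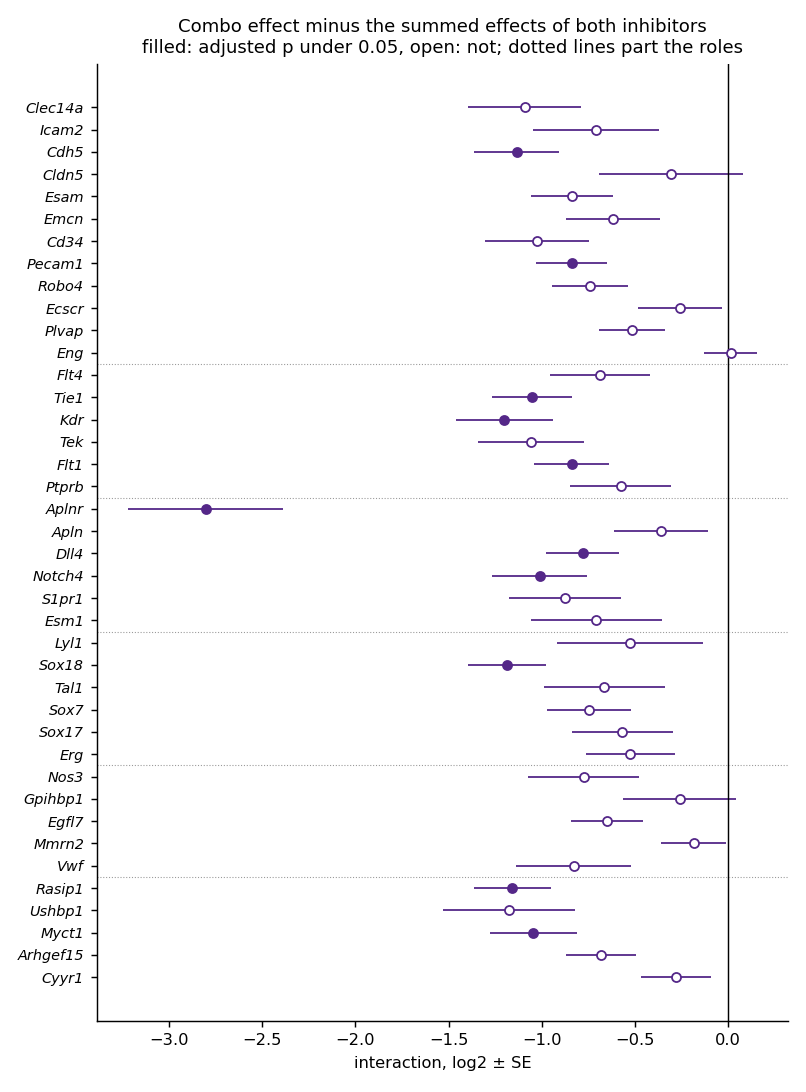
Interaction of both inhibitors (x axis, log2 scale, bars show the SE) for the 40 endothelial genes (y axis, in the order of roles). Values left of 0 mean that the Combo level was below the sum of both single changes. Filled points are the 11 genes that passed an adjusted p under 0.05, with Aplnr farthest left at -2.80.

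Levels per length show which endothelial RNAs were abundant. Per kb of exon, Plvap was the highest in Vehicle tumors at 70.6 ± 3.81 CPM per kb (SD, n = 5), before Eng at 49.4 ± 5.03 and Apln at 45.8 ± 4.45 CPM per kb. Cdh5 (30.2 ± 4.01), Pecam1 (27.9 ± 2.42) and Cldn5 (26.7 ± 3.35 CPM per kb) followed, the means of Pecam1 and Cldn5 lying within the SD of Cdh5. In Combo tumors Plvap (52.1 ± 7.16 CPM per kb) and Eng (47 ± 5.49) were still the highest and differed by less than their SD, followed by Esm1 (16.2 ± 6.04), Mmrn2 (16.1 ± 2.65) and Apln (15.5 ± 1.8 CPM per kb). Cdh5 stood at 9.87 ± 1.23 and Pecam1 at 13.4 ± 2.44 CPM per kb there.

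The members were also set against each other within each tumor, as the log2 ratio of a gene to the mean of Pecam1, Cdh5, Tie1, Esam and Clec14a, genes used across the endothelium. The ratios are a description without a test. All 5 of these genes fell in Combo tumors, so a gene with an even level has a higher ratio there by construction. Combo exceeded Vehicle by 1.75 for Cyyr1, 1.61 for Vwf, 1.35 for Eng, 1.32 for Mmrn2, 1.18 for Esm1, 1.12 for Ptprb, 0.98 for Plvap and 0.95 for Ecscr. In every Combo tumor the ratio of Cyyr1 (1.22 to 1.92) was above that in every Vehicle tumor (-0.31 to -0.07). The 5 smallest differences were those of Kdr (-0.01), Myct1 (-0.01), Dll4 (0.02), Flt4 (-0.05) and Notch4 (0.085). Among the others the ratio was higher in Combo by 0.74 for Flt1, 0.585 for Robo4 and 0.50 for Tek, and differed by -0.505 for Lyl1 and -0.49 for Nos3. The ratio of Aplnr differed by -1.27, with Combo tumors at -3.03 to -1.79 and Vehicle tumors at -1.44 to -0.71.

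Under PI3K inhibition the ratio was higher by 1.23 for Esm1 and differed by -0.88 for Gpihbp1 and by -0.60 for Apln. Under SHP2 inhibition it differed by -1.44 for Lyl1 and by -0.72 for Cldn5, and was higher by 0.70 for Ptprb. The ratio of Vwf was higher in all treated groups, by 0.73 in PI3Ki, 0.74 in SHP2i and 1.61 in Combo tumors.

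**Figure D4:**
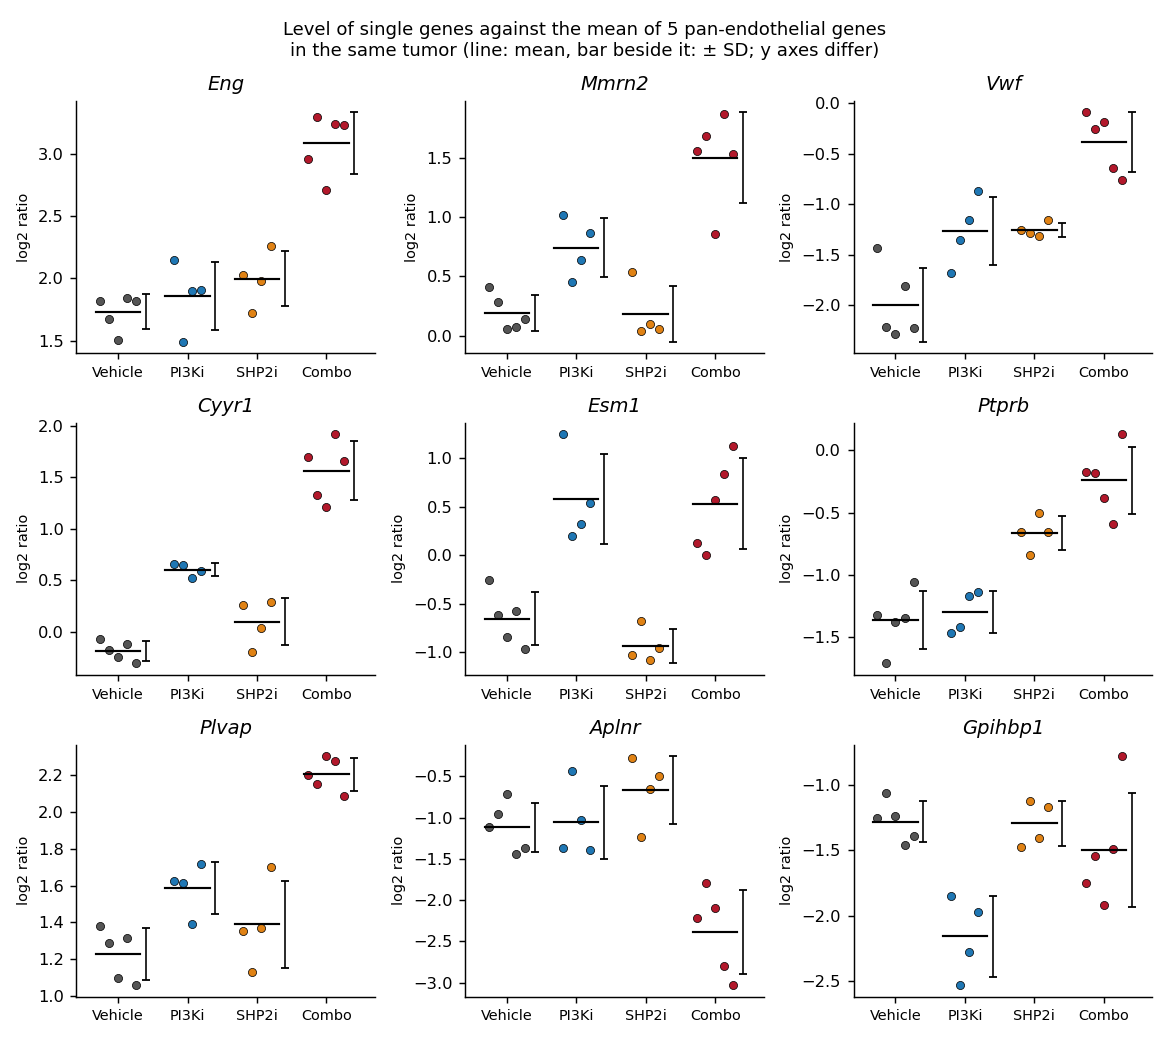
Log2 ratio (y axis) of 9 endothelial genes to the mean of Pecam1, Cdh5, Tie1, Esam and Clec14a in the same tumor, for the tumors of the 4 groups (x axis). Points are tumors, the line is the mean and the bar beside it ± SD. Eng, Mmrn2, Vwf, Cyyr1, Ptprb and Plvap lie higher in Combo than in all Vehicle tumors, Aplnr lies lower, and Gpihbp1 has its lowest mean in PI3Ki tumors.

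A second list of 24 endothelial genes outside the 40 was lower too in Combo tumors, with 15 lower, 2 higher and a median log2 fold change of -0.91. Of all genes, 19.7% were lower and 23.9% higher in this comparison. Falls over 2 on the log2 scale were measured for Hhex (-2.38), She (-2.07) and Bcl6b (-2.06). Heg1, a junction receptor, rose (1.26, adjusted p = 3.52e-05 by edgeR), and the ETS factor Ets1 rose (0.39). In PI3Ki tumors 3 of the 24 were lower and 0 higher, where 2.42% of all genes were lower and 2.69% higher. In SHP2i tumors 2 were lower and 1 higher, near the shares over all genes, 6.54% lower and 5.05% higher. Of 5 arterial genes tested, Gja4, Gja5 and Hey1 fell in Combo tumors (log2 fold changes -0.86, -1.23 and -1.25). Of 6 venous and activated endothelium genes, 1 fell, the leukocyte adhesion receptor Vcam1 (-0.59). Of 4 lymphatic genes, Lyve1 fell (-0.89), Reln rose (1.05) and Prox1, the factor that defines lymphatic endothelium, was near the filter with at most 38 counts in a tumor.

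The ligands and co-receptors of the member receptors went both ways. Of 14 tested, 7 rose and 4 fell in Combo tumors, where 23.9% of all genes were higher and 19.7% lower, with a median log2 fold change of 0.38. By edgeR Vegfa, the ligand of Kdr and Flt1, rose (1.27, adjusted p = 0.000708), as did Vegfc, a ligand of Flt4 (1.04, adjusted p = 4.11e-06), Angpt1 (1.38) and Angpt2 (0.60), the ligands of Tek, and the co-receptors Nrp1 (0.51) and Nrp2 (0.62). Pgf, a ligand of Flt1, fell (-0.86), as did the Notch ligand Jag1 (-0.90), Pdgfb (-0.94) and the BMP receptor Acvrl1, which signals with endoglin (-1.55). In SHP2i tumors 4 of the 14 were higher, Vegfa among them (0.90, adjusted p = 0.0353 by edgeR), and 0 lower. Of all genes, 5.05% were higher and 6.54% lower there. In PI3Ki tumors 4 were lower (Pgf, Jag1, Jag2 and Pdgfb) and 0 higher, where 2.42% of all genes were lower and 2.69% higher. Gdf2 and Bmp10, ligands of endoglin, had at most 1 count in a tumor and were not tested.

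Markers of other cells of the vessel wall and the stroma went both ways in Combo tumors, where 19.7% of all genes were lower and 23.9% higher. Of 10 pericyte markers, Mcam (-1.65), Cox4i2 (-2.34), Higd1b (-1.60) and Kcnj8 (-0.70) were lower and Notch3 (1.15) was higher, while Rgs5 (-0.42) and Pdgfrb (0.26) did not pass the test. Their summed level was 280.5 to 437.1 CPM in Combo and 323.1 to 456.5 CPM in Vehicle tumors. Of 10 fibroblast markers 4 were lower, Col1a1 among them (-1.34), and 2 were higher, Pdgfra (1.66) and Dcn (1.39). Of 10 adipocyte markers 4 were higher and 0 lower, and of 10 epithelial markers 1 was higher and 1 lower. Of the platelet markers 4 of 10 could be tested and 1, Ppbp, was lower, while Gp9, Gp5, Gp6 and Tubb1 were at 0 counts in at least 1 tumor. Erythroid markers were lower for 2 of 4, with a summed level of 19.43 to 123.7 CPM in Combo and 185.3 to 388 CPM in Vehicle tumors.

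The leukocyte markers, of which 8 of 8 fell in Combo tumors by a median of -1.96 and none was at 0, moved with the endothelial genes in this comparison. With the leukocyte level of each tumor in the fit, 25 of the 40 genes were called lower in Combo than in Vehicle tumors. The summed leukocyte level was at most 1038 CPM in Combo and at least 1391 CPM in Vehicle tumors. That fit therefore cannot part leukocyte content from the treatment. With the muscle level in the fit 34 genes were called lower. Without Combo replicates 3 and 4, the tumors with high B cell markers, the count was 33. The mean log2 CPM of the 40 genes, set to 0 in Vehicle, was -1.29 to -0.99 in Combo, -0.50 to 0.00 in PI3Ki and -0.25 to 0.24 in SHP2i tumors, against -0.10 to 0.10 in Vehicle tumors.

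**Figure D5:**
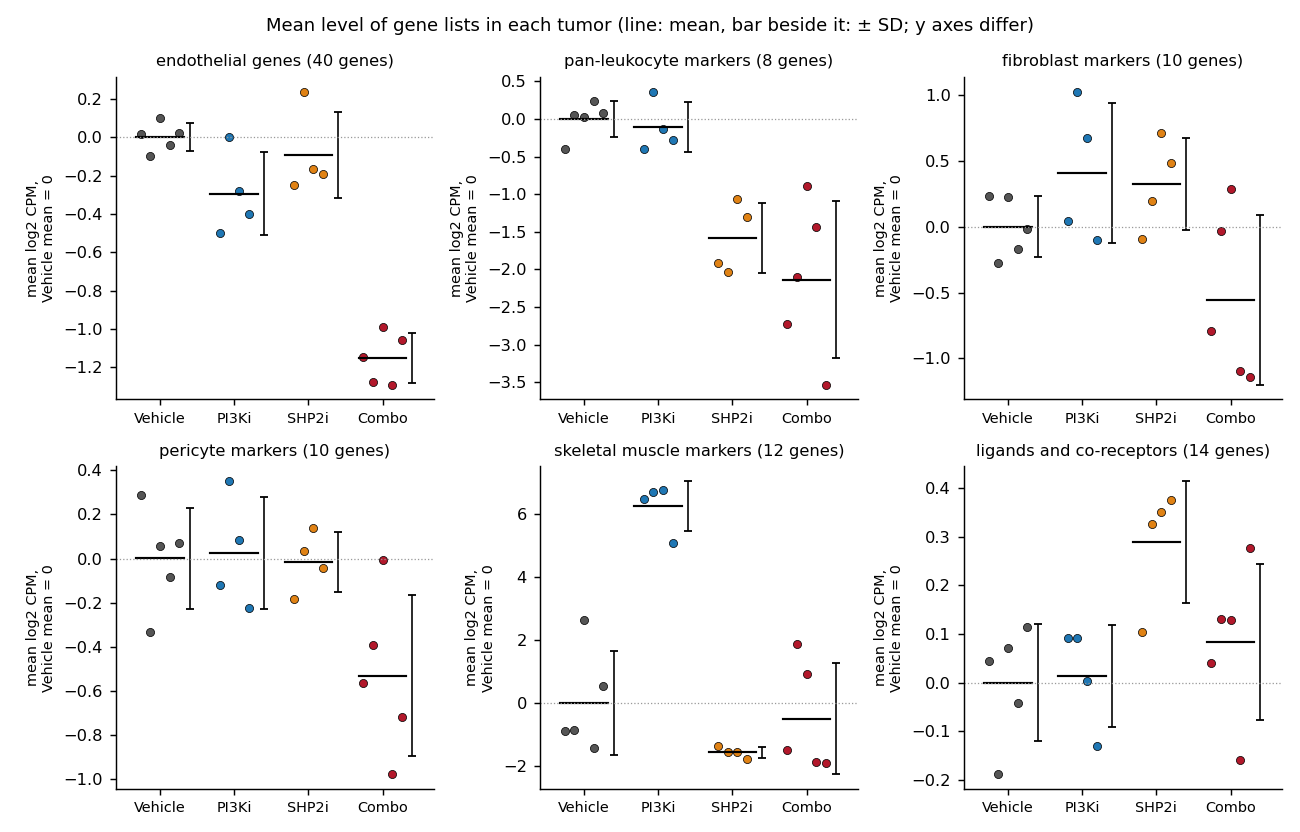
Mean log2 CPM of the 40 endothelial genes and of 5 other gene lists in each tumor (y axis, Vehicle mean set to 0, axes differ between panels) by group (x axis). Points are tumors, the line is the mean and the bar beside it ± SD. The endothelial genes lie lower in the 5 Combo tumors than in any other tumor, the leukocyte markers are low in SHP2i and Combo tumors, and the muscle markers are high in the 4 PI3Ki tumors.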

How the data were processed

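RNA was measured in 18 tumors, 5 Vehicle, 4 PI3Ki, 4 SHP2i and 5 Combo, which were grouped by the treatment in their labels. The authors enriched poly(A) RNA, built directional libraries for paired reads, aligned the reads with STAR to GRCm38 and summed them by gene. The deposited values are raw counts, whole numbers without normalization, under Entrez Gene identifiers. The submitters' processing notes also name hg19, and the identifiers are those of mouse genes. Whether counting used the strand is not given in the sources used here, so reads of overlapping genes cannot be told apart, which touches 16 of the 40 members. Symbols matched 22760 of 22792 identifiers, and those without a symbol carried 0.0193% of the counts.

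The model was edgeR 4.0.16 (R 4.3.3) with filterByExpr (minimum count 10, minimum total count 15), TMM scaling, 1 mean per group over all 18 tumors, the quasi-likelihood F test and Benjamini-Hochberg adjustment over 15282 genes (common biological coefficient of variation, 0.2125). A gene was called at an adjusted p under 0.05. The SE was obtained as the size of the log2 fold change over the root of F. CPM were TMM scaled, log2 CPM used a prior count of 2, and levels per length used the bases covered by exons in GENCODE. No pair of tumors within a group held alike counts (chi-square per gene of 12.8 or more). The fit was tested on simulated counts with known changes.

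The values in every tumor are given for 18 genes: the 2 highest of each role and those with the 3 smallest p in a comparison with Vehicle or in the interaction. Of the other lists, the genes with the highest levels and those that passed the test could be named. The members, the lists and the tests were chosen with earlier results of these data known. The alternatives were DESeq2 1.42.0, limma 3.58.1 (voom with quality weights), other scaling and filters, only the groups compared, a replicate block, a muscle covariate, a fold change limit and each tumor left out. A leukocyte covariate and fits without pairs of tumors that stood apart were added after the data were seen.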

Additional observations from a re-analysis of the deposited data

Results flagged for a closer look

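Single tumors stood far from the rest of their group in 12 of the 160 sets of 4 or 5 tumors screened, by the gap to the nearest tumor over the range of the group (Dixon's 95% limit, which chance passes in about 1 of 20 sets). SHP2i replicate 3 was the high tumor in 6 of them: Cldn5 at 42.52 CPM (others 15.8 to 17.66), Emcn at 40.7 CPM (others 26.28 to 26.9), Clec14a at 16.97 CPM (others 10.47 to 11.47), Dll4 at 30.98 CPM (others 21.04 to 22.03), Esm1 at 47.59 CPM (others 23.62 to 25.83) and Arhgef15 at 19.16 CPM (others 13.32 to 14.16). PI3Ki replicate 2 was the high tumor for Emcn at 37.88 CPM (others 20.13 to 21.52) and Ecscr at 27.17 CPM (others 17.17 to 18.21). PI3Ki replicate 1 was the low tumor for Sox17 at 2.875 CPM (others 4.483 to 4.661) and Vwf at 11.86 CPM (others 21.97 to 23.39). Combo replicate 5 was the high tumor for Gpihbp1 at 13.86 CPM (others 6.477 to 7.169) and Vehicle replicate 3 for Rasip1 at 31.87 CPM (others 24.25 to 26.22).

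The change under PI3K inhibition differed with and without SHP2 inhibition, by the interaction term of the edgeR fit, for 11 genes. On the log2 scale the difference was -2.803 for Aplnr, -1.201 for Kdr, -1.186 for Sox18, -1.158 for Rasip1, -1.135 for Cdh5, -1.051 for Tie1, -1.046 for Myct1, -1.011 for Notch4, -0.841 for Pecam1, -0.84 for Flt1 and -0.782 for Dll4.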

How the results depend on the processing

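The count of 34 genes lower in Combo than in Vehicle stayed at 34 in each of the 18 fits that left out 1 tumor and between 25 and 34 in the other alternatives run. The counts of 33 and 34 genes lower than in PI3Ki and SHP2i tumors ranged from 32 to 34 when 1 tumor was left out. For the 18 genes given tumor by tumor, no change that passed the test turned its direction in any alternative run. The directions of the other changes were not checked. The cause of the shifts below was not tested.

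Genes lower in PI3Ki tumors (5) numbered 8 by DESeq2, 17 by limma voom, 8 with only the groups compared, 0 with the muscle covariate, 1 when a log2 fold change over 1 was also asked, 11 without PI3Ki replicate 2 and SHP2i replicate 3, and 3 to 7 with 1 tumor left out. The 1 gene higher there became 2 by DESeq2, 0 without a filter, 0 with the replicate block, 0 with the muscle covariate, 0 with the fold change limit, 0 without Combo replicates 3 and 4, and 0 to 2 with 1 tumor left out.

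Genes lower in SHP2i tumors (2) numbered 8 by voom, 1 with the fold change limit, 4 without PI3Ki replicate 2 and SHP2i replicate 3, and 0 with the leukocyte covariate. Genes higher there (0) numbered 2 by DESeq2, 2 by voom, 2 with only the groups compared, 1 without Combo replicates 3 and 4, and 0 to 2 with 1 tumor left out. The 1 gene higher in Combo than in Vehicle, Cyyr1, was at 0 by voom, with upper quartile scaling, without a filter, with the replicate block, with the muscle or leukocyte covariate, with the fold change limit and without Combo replicates 3 and 4, and at 0 to 1 with 1 tumor left out.

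Genes lower in Combo than in PI3Ki tumors (33) numbered 0 with the muscle covariate, 15 with the fold change limit and 13 with the leukocyte covariate. Between SHP2i and PI3Ki tumors, the 3 lower genes became 0 with the muscle covariate and 3 to 5 with 1 tumor left out (5 without SHP2i replicate 3), and the 10 higher genes became 0 with the muscle covariate, 1 with the fold change limit, 1 with the leukocyte covariate and 6 to 12 with 1 tumor left out (6 without SHP2i replicate 3). The 11 interactions became 20 by DESeq2, 0 with the muscle covariate, 5 without PI3Ki replicate 2 and SHP2i replicate 3, and 6 to 16 with 1 tumor left out. They were 7 without Vehicle replicate 2 or 4 or SHP2i replicate 3 or 4, and 6 without PI3Ki replicate 2. The call of Apln in Combo against PI3Ki was lost without PI3Ki replicate 1, that of Sox17 without 6 tumors in turn, and in PI3Ki against Vehicle those of Nos3 without PI3Ki replicate 5 and Flt4 without 6 tumors in turn.

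The deviations of tumors with the same replicate number had correlations of either sign, from -0.42 to 0.326 over 24 pairs, and the numbers were not taken as pairs. Tumors with different numbers were not compared in this way, so a shared deviation is not excluded. With the replicate block 5 genes were lower in PI3Ki, 2 in SHP2i and 34 in Combo than in Vehicle, 32 lower than in PI3Ki, 33 lower than in SHP2i tumors, 3 lower and 9 higher in SHP2i than in PI3Ki tumors, and 10 interactions were called. The depth of 21.16 M to 26.62 M counts gave every one of the 40 genes counts above 0 in every tumor, and the number of tumors limits the precision.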
